A study of Mus musculus with 13 samples.

Results

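Metalloproteinases, ADAM and ADAMTS proteins, TIMPs and cathepsins are the enzymes, and the inhibitors of those enzymes, that cut extracellular matrix, shed membrane proteins and break down proteins in lysosomes. Their genes were followed here in mouse retinal vessels. Members were taken by symbol alone: every noncontrol probe whose gene is named Mmp or Adam with a number, Adamts (the Adamtsl genes included), Timp1 to Timp4, or Cts with 1 further letter. This gave 122 of 41174 probes and 90 genes: 20 MMP, 29 ADAM, 19 ADAMTS, 4 TIMP and 18 cathepsin genes. The rule reads symbols and no measured value.

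The samples were 6 tip, 4 stalk and 3 nonvascular retina samples of the mouse, the last labelled as the control. Tip cells are the endothelial cells that lead a sprouting vessel, and stalk cells follow them and form its tube. The labels name no strain, age, allele or treatment for any of the 3 groups, do not say how cells were collected, and do not tie samples to animals, so p-values measure only the spread between these samples, which may be technical. Each array carried the sample in Cy5 and Universal Mouse Reference RNA, a commercial pool common to all arrays, in Cy3.

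Vessel sprouts grow through a basement membrane and matrix that metalloproteinases can open. Secreted MMPs and the membrane-type MMPs cut matrix proteins, and Mmp14 (MT1-MMP) also activates pro-Mmp2 on the cell surface. The TIMPs inhibit MMPs, and Timp3, which stays bound to matrix, also inhibits several ADAM and ADAMTS enzymes. ADAMs are membrane proteins, many of which release the ectodomains of growth factors, cytokines and Notch; others have lost the catalytic site and serve as receptors. ADAMTS enzymes are secreted and cut proteoglycans and procollagens. Cathepsins are mostly lysosomal cysteine or aspartic proteases and are abundant in phagocytes such as microglia.

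Values below are log2 ratios of sample over reference, so they compare samples for 1 probe and not genes with each other. A gene was tested if its brightest probe was well above background in Cy5 on 3 or more of the 13 arrays. This held for 87 of the 90 members, and 80 were above background on all 13. Adam12, Adamts13 and Ctsj, above background on 2, 1 and 0 arrays, were not tested. A gene is called higher or lower when its adjusted p is under 0.05, by limma's moderated test over all 31956 genes with Benjamini-Hochberg adjustment. Differences carry the standard error of that fit, and n is 6 tip, 4 stalk and 3 nonvascular arrays throughout unless a spot was missing.

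Some facts of the arrays touch all results. The median sample signal above background was 105 to 292 on tip arrays, 98.1 to 141 on stalk arrays and 166 to 282 on nonvascular arrays. Between tip and stalk, 472 genes were called higher and 421 lower. With each array centred on its median in place of loess these counts were 49 and 203, with the sample channel alone 211 and 482, and with array brightness in the model 60 and 125. Of 10 endothelial markers, 9 were called higher in tip and 8 higher in stalk than in nonvascular retina. Between tip and stalk, 2 of the 10 were called lower in tip and 0 higher. Their mean log2 ratio was 2.53 to 2.87 on tip arrays, 2.91 to 3.09 on stalk arrays and 0.45 to 0.74 on nonvascular arrays. Of 10 pericyte and smooth muscle markers, 7 were called lower in tip than in stalk. Their mean log2 ratio was 0.75 to 1.03 on tip arrays, 1.48 to 1.71 on stalk arrays and −0.94 to −0.77 on nonvascular arrays. Astrocyte markers averaged 1.49 to 1.78 on tip arrays, 1.502 to 1.81 on stalk arrays, and 0.12, 0.27 and 1.33 on nonvascular replicates 1 to 3, so nonvascular replicate 3 stands apart. Mueller glia markers did likewise, at 2.66 to 3.08 on tip arrays, 2.96 to 3.11 on stalk arrays, and 1.71, 1.43 and 2.75 on nonvascular replicates 1 to 3. Of the 6 astrocyte markers 3 were called higher in tip and 2 in stalk than in nonvascular retina, and of the 6 Mueller glia markers 4 in tip, with 1 lower there, and 3 in stalk. In tissue RNA of this kind, fewer cells of a type and less RNA per cell cannot be told apart.

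The upstream sequences below show 3 genes of a run of neighbouring metalloproteinases on chromosome 9 and 4 members from elsewhere that the results turn on. Of the 90 members, 57 matched the promoter table of RefSeq (build GRCm38.p6), and the 250 bases before the annotated start were read from it. In the first set, capitals mark the AP-1 motif TGANTCA and the TATA motif TATAAA. The second set has neither, and its capitals mark the GC box GGGCGG. Both strands were searched, and no 2 of the hits shown overlap.
Mmp3 (chr9:7445572-7445821, + strand): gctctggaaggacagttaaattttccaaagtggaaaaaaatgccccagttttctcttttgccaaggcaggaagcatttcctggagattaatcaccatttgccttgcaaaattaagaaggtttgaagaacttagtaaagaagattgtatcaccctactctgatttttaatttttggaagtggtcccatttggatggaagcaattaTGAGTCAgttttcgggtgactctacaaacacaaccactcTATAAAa
Mmp10 (chr9:7502092-7502341, + strand): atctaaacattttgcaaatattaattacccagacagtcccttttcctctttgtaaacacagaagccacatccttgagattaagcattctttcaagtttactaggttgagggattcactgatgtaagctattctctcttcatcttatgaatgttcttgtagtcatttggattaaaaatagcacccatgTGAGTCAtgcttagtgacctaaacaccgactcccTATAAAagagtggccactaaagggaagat
Mmp13 (chr9:7272264-7272513, + strand): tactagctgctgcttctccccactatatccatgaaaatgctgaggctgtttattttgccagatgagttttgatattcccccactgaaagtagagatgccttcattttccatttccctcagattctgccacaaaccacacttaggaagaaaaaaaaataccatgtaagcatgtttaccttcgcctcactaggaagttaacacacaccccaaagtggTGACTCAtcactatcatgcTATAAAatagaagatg
Mmp14 (chr14:54431348-54431597, + strand): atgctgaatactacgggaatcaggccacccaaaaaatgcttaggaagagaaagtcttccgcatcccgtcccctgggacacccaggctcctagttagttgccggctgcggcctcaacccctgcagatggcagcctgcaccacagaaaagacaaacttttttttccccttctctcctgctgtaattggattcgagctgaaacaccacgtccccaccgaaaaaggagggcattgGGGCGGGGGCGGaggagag
Mmp11 (chr10:75932503-75932752, − strand): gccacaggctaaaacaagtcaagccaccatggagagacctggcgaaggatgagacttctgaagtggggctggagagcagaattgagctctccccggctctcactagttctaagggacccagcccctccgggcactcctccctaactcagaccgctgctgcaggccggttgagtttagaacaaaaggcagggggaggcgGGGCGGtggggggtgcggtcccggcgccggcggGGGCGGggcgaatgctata
Timp1 (chrX:20869916-20870165, + strand): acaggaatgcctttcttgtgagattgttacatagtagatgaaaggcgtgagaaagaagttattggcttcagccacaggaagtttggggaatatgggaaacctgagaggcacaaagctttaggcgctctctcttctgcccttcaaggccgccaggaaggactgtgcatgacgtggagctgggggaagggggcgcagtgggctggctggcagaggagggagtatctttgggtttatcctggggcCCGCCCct
Timp3 (chr10:86300162-86300411, + strand): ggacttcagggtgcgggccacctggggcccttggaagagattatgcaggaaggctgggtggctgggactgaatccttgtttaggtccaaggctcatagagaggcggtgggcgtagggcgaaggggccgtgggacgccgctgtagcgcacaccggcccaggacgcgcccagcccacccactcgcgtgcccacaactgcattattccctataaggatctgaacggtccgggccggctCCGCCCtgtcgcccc

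Mmp3, Mmp10 and Mmp13 lie in a run of 8 metalloproteinase genes on chromosome 9 (Mmp13, Mmp12, Mmp3, Mmp1a, Mmp10, Mmp8, Mmp20 and Mmp7, each within 500 kb of the next). Of these 8 promoters, 6 hold TGANTCA, 6 hold TATAAA and 0 hold GGGCGG. Among the 49 promoters of the other members, 2 hold TGANTCA, 10 hold TATAAA and 26 hold GGGCGG. Over all 27025 promoters of the table the shares were 6.87% for TGANTCA, 12.97% for TATAAA and 32.9% for GGGCGG. A match describes the letters only. All 8 genes of the run passed the filter, and the largest difference of any of them between any pair of groups was 0.47 on the log2 scale. None was called between tip and stalk by limma, where 2.79% of all genes were, and 0 had an unadjusted p under 0.05 there. In tip against nonvascular retina 1 (Mmp3) was called, where 28.0% of all genes were, and 3 were higher at an unadjusted p under 0.05. In stalk against nonvascular retina limma called 0, where 29.8% of all genes were called, and 1 was higher at an unadjusted p under 0.05.

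Between tip and stalk, 1 of the 87 tested members was called higher (Adamts20) and 7 were called lower (Ctsw, Mmp11, Ctsh, Timp1, Adam15, Adamtsl2 and Timp4). Among all genes 1.48% were called higher and 1.32% lower. The median difference of the members was −0.01, against 0.00 for all genes. None of the 8 had a tip array within the range of the stalk arrays, but they were picked by their call on these same arrays. Some uncalled members, Mmp14 and Adamts4 among them, were separated too. The share of all genes without such overlap was not counted. The calls of Ctsw and Mmp11 held under all 25 other ways of processing the data, and those of the other 6 were each lost under 3 or more of them.

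**Figure D1:**
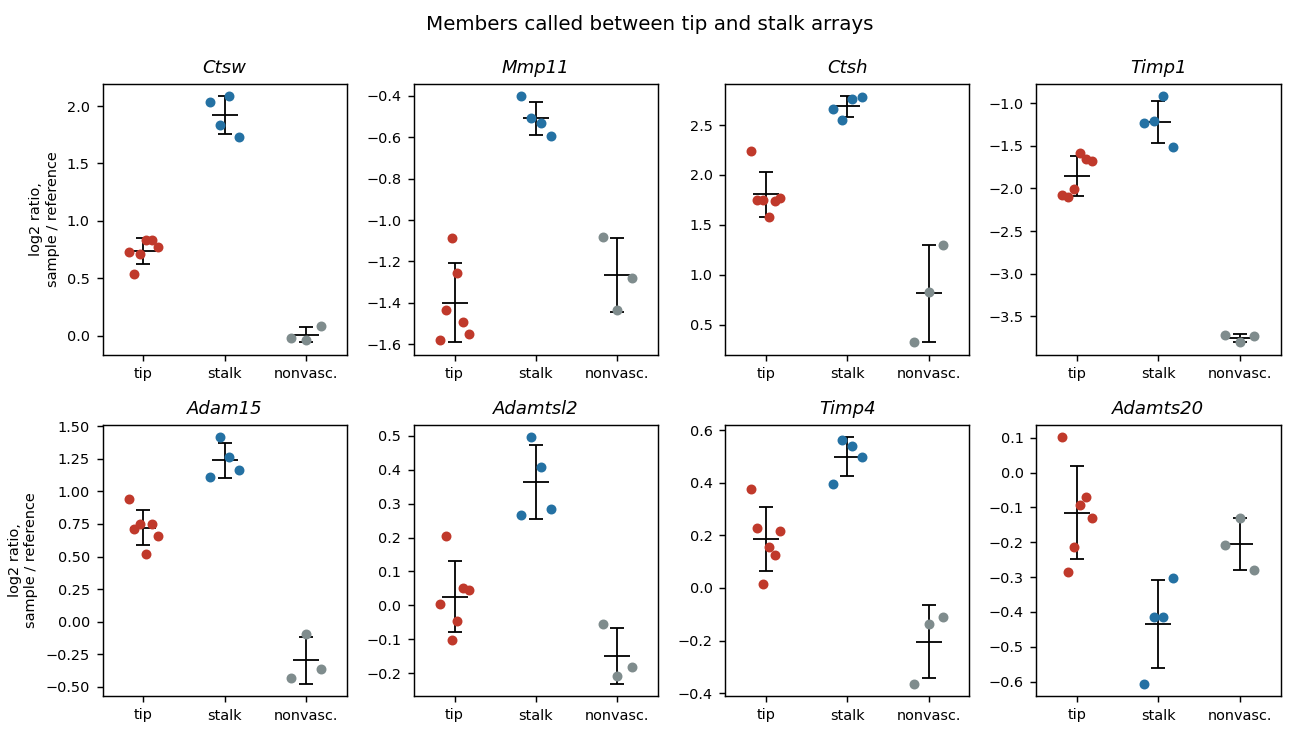
Log2 ratio of sample over reference (vertical axis) on each array for the 8 members called between tip and stalk, by group (6 tip, 4 stalk and 3 nonvascular arrays). Points are arrays, the horizontal mark is the group mean and the bar its SD. The panels were chosen by the call on these same arrays. Ctsw shows the widest gap, with tip arrays at 0.53 to 0.84 and stalk arrays at 1.73 to 2.08.

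Against nonvascular retina the calls were more numerous. Tip was higher for 19 members and lower for 12, where 11.2% of all genes were higher and 16.8% lower. Stalk was higher for 17 members and lower for 12, where 11.2% of all genes were higher and 18.6% lower. Both comparisons use the same 3 nonvascular arrays. In percent of the 87 tested members, the higher calls were 21.8% for tip and 19.5% for stalk, and the lower calls 13.8% for each. In either direction, 28.0% of all genes were called for tip and 29.8% for stalk. Of the 31956 genes behind these shares 17350 have a symbol, as every member does, and the share among those alone was not counted. Another 49 of the tested members were called in none of the 3 comparisons.

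**Figure D2:**
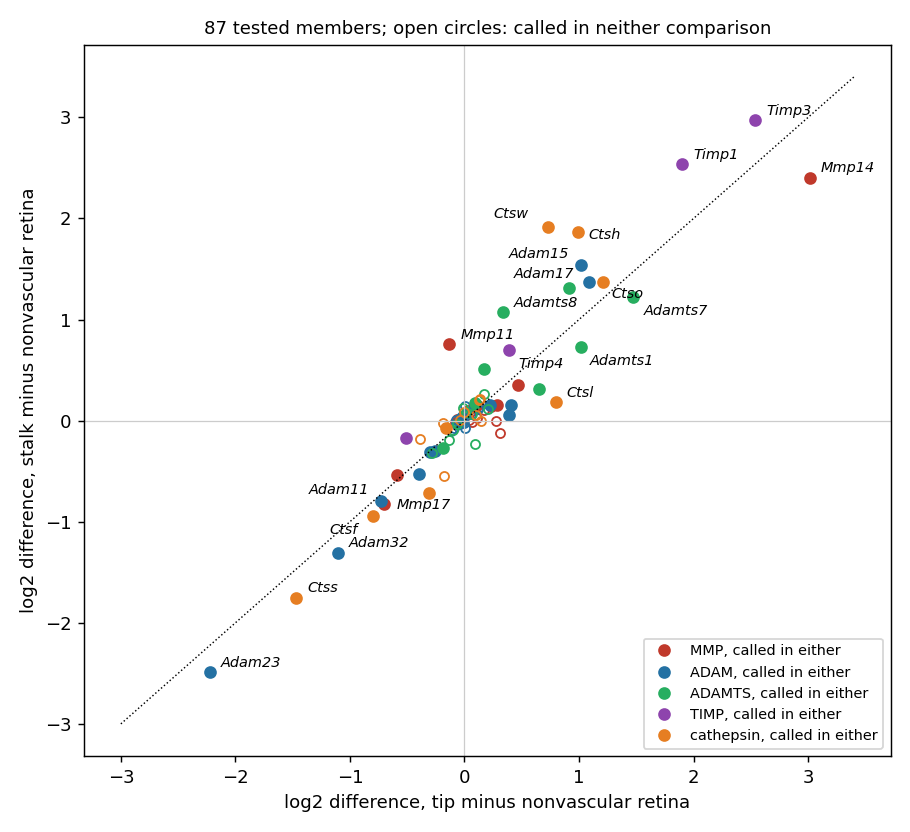
Log2 difference of the 87 tested members, tip minus nonvascular retina on the horizontal axis and stalk minus nonvascular retina on the vertical axis, colored by family; filled points are called in at least 1 of these comparisons and open ones in neither. The axes share the nonvascular arrays, so points lie near the dotted line of equal difference for that reason too; Mmp14 (3.02 and 2.40) and Timp3 (2.54 and 2.98) lie farthest up and Adam23 (−2.22 and −2.49) farthest down.

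The membrane-type metalloproteinase Mmp14 had the largest difference of any member from nonvascular retina in the tip samples. Its log2 ratio on tip arrays ran from 1.19 through a median of 1.58 to 1.84, on stalk arrays it was 1.04, 0.84, 0.75 and 1.03, and on nonvascular arrays it was −2.18, −2.32 and 0.04. Every vessel array lay above every nonvascular array, and nonvascular replicate 3, the nonvascular array with the highest astrocyte and Mueller glia markers, lay far above the other 2. Tip exceeded nonvascular retina by 3.02 ± 0.39 (8.09-fold, adjusted p = 6.57e-05) and stalk did so by 2.40 ± 0.43 (5.29-fold, adjusted p = 0.000737). Without nonvascular replicate 3 these differences were 3.78 and 3.16; the part of the glial markers in the spread was not tested.

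All 6 tip arrays also lay above all 4 stalk arrays for Mmp14, by 0.61 ± 0.36 on average, and this difference was not called (adjusted p = 0.402). The spread in the fit is shared by the 3 groups, so it includes nonvascular replicate 3. Fitted on the tip and stalk arrays alone, the same difference had an adjusted p of 0.0292, and without nonvascular replicate 3 one of 0.0186. It was called in only these 2 of the 25 alternatives. The other Mmp14 probe, which was dimmer, differed less: 0.51 ± 0.13 for tip (adjusted p = 0.00885) and 0.35 ± 0.14 for stalk (adjusted p = 0.0768) against nonvascular retina, and 0.16 ± 0.12 between tip and stalk. The spot of the brightest probe was saturated in the sample channel on 1 tip array.

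Mmp11 (stromelysin-3), a secreted MMP that furin-type enzymes activate inside the cell, went the other way between the vessel groups. It was at −1.58 to −1.08 on tip arrays (median −1.46), at −0.40, −0.51, −0.53 and −0.60 on stalk arrays, and at −1.08, −1.44 and −1.28 on nonvascular arrays. The stalk arrays stood above all others, while tip and nonvascular arrays overlapped. Tip was 1.85-fold below stalk (−0.89 ± 0.10, adjusted p = 0.000543), stalk was 1.69-fold above nonvascular retina (0.76 ± 0.12, adjusted p = 0.000262), and tip minus nonvascular retina was −0.13 ± 0.11 (adjusted p = 0.434).

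The gelatinases Mmp2 and Mmp9, which degrade denatured collagen and basement membrane collagen, were not called in any comparison. Mmp2 stood at −1.42 to −0.73 on tip arrays, at −1.32, −1.21, −1.47 and −1.46 on stalk arrays and at −1.14, −1.57 and −1.39 on nonvascular arrays, so the 3 groups overlapped. For Mmp9, tip minus stalk was 0.08 ± 0.08 and tip minus nonvascular retina 0.11 ± 0.09. Mmp15 (MT2-MMP), a membrane-type relative of Mmp14, was at 0.99 to 1.59 on tip arrays, at 1.03, 1.14, 0.49 and 1.13 on stalk arrays and at 1.28, 0.92 and 1.01 on nonvascular arrays, and was called nowhere either. Mmp16 (MT3-MMP) was above background on 3 arrays in all, none of them a stalk array.

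The membrane-bound Mmp24 and Mmp17 were lower in vessels. Mmp24 (MT5-MMP), known from neurons, ran from 0.05 to 0.09 on tip arrays, was 0.22, 0.00, 0.19 and 0.12 on stalk arrays, and was 0.96, 0.58 and 0.45 on nonvascular arrays. The nonvascular arrays lay above every vessel array. Its differences from nonvascular retina were −0.59 ± 0.09 for tip (adjusted p = 0.000219) and −0.53 ± 0.10 for stalk (adjusted p = 0.000869). Mmp17 (MT4-MMP), which is held to the membrane by a lipid anchor, was lower than in nonvascular retina by −0.70 ± 0.12 in tip (adjusted p = 0.000567) and by −0.82 ± 0.13 in stalk (adjusted p = 0.000278). Ganglion cell markers moved in the same direction: 7 of 8 were called lower in tip and 6 of 8 lower in stalk than in nonvascular retina, with mean log2 ratios of 0.39 to 0.75 on tip, −0.32 to 0.63 on stalk and 2.33 to 2.61 on nonvascular arrays. Of 8 amacrine and bipolar markers, 1 was called higher and 3 lower in tip than in nonvascular retina, and likewise in stalk. Of 8 photoreceptor markers, 3 were called lower in tip and 2 in stalk, with 0 higher. The part of any of these neuron markers in these differences was not tested.

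Mmp3 (stromelysin-1) was dim against the reference everywhere, at −4.26 to −3.39 on tip arrays, −3.89, −3.76, −3.82 and −3.91 on stalk arrays and −4.07, −4.19 and −4.34 on nonvascular arrays. Tip was 0.47 ± 0.15 above nonvascular retina (adjusted p = 0.0355), with overlapping arrays. That call was lost when any of 6 single arrays was left out (tip replicates 3, 4 and 6 and the 3 nonvascular ones), with adjusted p of 0.0535 to 0.138. Mmp23, a membrane-anchored MMP named here after its values were seen, was at −0.90 to −0.62 on tip arrays, −0.86, −0.87, −0.86 and −0.88 on stalk arrays and −1.03, −0.96 and −1.09 on nonvascular arrays. Tip exceeded nonvascular retina by 0.29 ± 0.06 (adjusted p = 0.00414), while stalk minus nonvascular retina was 0.16 ± 0.07 (adjusted p = 0.114) and tip minus stalk 0.13 ± 0.06 (adjusted p = 0.265). In all, 3 of the 20 MMP genes were called higher (Mmp14, Mmp3 and Mmp23) and 2 lower (Mmp24 and Mmp17) in tip than in nonvascular retina. In stalk 2 were higher (Mmp14 and Mmp11) and the same 2 lower. These are 15% higher and 10% lower in tip, where 11.2% of all genes were higher and 16.8% lower. For stalk they are 10% each, where 11.2% of all genes were higher and 18.6% lower.

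All 4 TIMP genes were measured on all 13 arrays, and each had a tip mean below its stalk mean, by 0.31 to 0.63 on the log2 scale. Timp1 and Timp4 were called in that comparison, and Timp2 and Timp3 were not. Among all genes 1.32% were called lower in tip than in stalk. The call of Timp1 was lost under 6 of the 25 alternatives and that of Timp4 under 13. Against nonvascular retina, 3 of the 4 were called higher in tip and the same number in stalk. Among all genes 11.2% were called higher in each.

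Timp3 had the largest difference from nonvascular retina of any member in the stalk samples. Its log2 ratio was −0.81 to −0.29 on tip arrays (median −0.50), 0.01, −0.06, −0.65 and 0.29 on stalk arrays and −3.01, −3.17 and −3.06 on nonvascular arrays. The nonvascular arrays lay below every vessel array by more than the range within any group, while stalk replicate 3 fell among the tip arrays. Tip was 5.81-fold (2.54 ± 0.17, adjusted p = 2.45e-07) and stalk 7.86-fold (2.98 ± 0.19, adjusted p = 1.19e-07) above nonvascular retina. Tip minus stalk was −0.44 ± 0.16 (adjusted p = 0.162). It was called in only 1 of the 25 alternatives, without stalk replicate 3 (−0.62, adjusted p = 0.0292).

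Timp1, a secreted inhibitor of most MMPs, was at −2.10 to −1.59 on tip arrays (median −1.84), at −1.23, −1.21, −0.91 and −1.51 on stalk arrays and at −3.72, −3.80 and −3.74 on nonvascular arrays. The 3 groups did not overlap. Tip was 3.74-fold above nonvascular retina (1.90 ± 0.14, adjusted p = 4.87e-07), stalk was 5.80-fold above it (2.54 ± 0.15, adjusted p = 8.43e-08), and tip was 1.55-fold below stalk (−0.63 ± 0.13, adjusted p = 0.0212). The other 2 Timp1 probes were also called higher in tip than in nonvascular retina (0.80 and 0.48), but between tip and stalk they differed by 0.05 and 0.02. The call between tip and stalk was lost with the mean of the 3 probes (−0.19, adjusted p = 0.159) and when stalk replicate 1, 2 or 3 was left out (adjusted p of 0.0504 to 0.0681).

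Timp4 was at 0.01 to 0.38 on tip arrays, at 0.39, 0.56, 0.54 and 0.50 on stalk arrays and at −0.36, −0.14 and −0.11 on nonvascular arrays. Tip was below stalk by a small step (−0.31 ± 0.07, adjusted p = 0.0401) and above nonvascular retina (0.39 ± 0.08, adjusted p = 0.00215), and stalk was above nonvascular retina by 0.70 ± 0.09 (adjusted p = 3.44e-05). The tip to stalk call was lost on leaving out any of 9 of the 13 arrays (tip replicates 2 to 5, every stalk replicate and nonvascular replicate 2), with adjusted p of 0.0525 to 0.112. Timp2, which also takes part in the activation of pro-Mmp2 by Mmp14, was the exception against nonvascular retina: −0.70 to −0.14 on tip arrays, −0.25, 0.05, 0.04 and 0.00 on stalk arrays, and 0.20, 0.12 and 0.08 on nonvascular arrays. Tip lay below nonvascular retina (−0.51 ± 0.12, adjusted p = 0.00613), while stalk minus nonvascular retina was −0.17 ± 0.13 (adjusted p = 0.388) and tip minus stalk −0.34 ± 0.11 (adjusted p = 0.127).

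**Figure D3:**
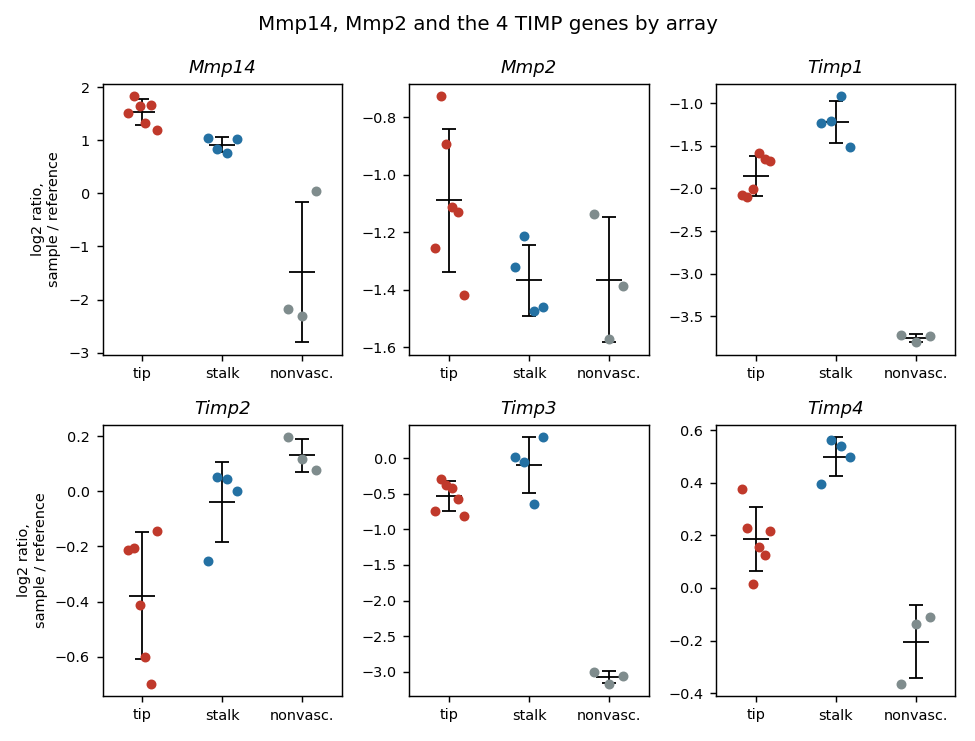
Log2 ratio of sample over reference (vertical axis) on each array for Mmp14, Mmp2 and the 4 TIMP genes in 6 tip, 4 stalk and 3 nonvascular arrays; points are arrays, the horizontal mark is the mean and the bar the SD. Mmp14, Timp1 and Timp3 are above nonvascular retina on every vessel array, Mmp2 overlaps between all groups, and nonvascular replicate 3 of Mmp14 (0.04) stands off from −2.18 and −2.32.

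The means of the pericyte and smooth muscle markers and of the endothelial markers were each lower on every tip array than on every stalk array. Timp1 and Timp4 were too, and the part of either marker list in the TIMP differences was not tested. A further feature of these genes is their position. In the RefSeq gene table (GRCm38.p6), Timp1 (chrX:20870166-20874737) lies within the interval of Syn1, Timp3 (chr10:86300412-86349505) within that of Syn3 and Timp4 (chr6:115244444-115252205) within that of Syn2, the synapsin genes of neurons. In tip against nonvascular retina Syn1 and Syn2 were called lower, and Syn3 was not called. The differences were −0.71 ± 0.10 for Syn1 (adjusted p = 8.97e-05), −2.01 ± 0.20 for Syn2 (adjusted p = 6.63e-06) and 0.14 ± 0.08 for Syn3 (adjusted p = 0.230). Stalk minus nonvascular retina was −0.89 ± 0.10, −1.85 ± 0.22 and 0.19 ± 0.08 for the same 3 genes. The part of position in the TIMP differences was not tested.

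Among the sheddases, Adam15 and Adam17 were higher in vessels. Adam15 carries a disintegrin domain that binds integrins and is known from endothelial cells. It was at 0.52 to 0.94 on tip arrays (median 0.73), at 1.11, 1.42, 1.27 and 1.17 on stalk arrays and at −0.43, −0.09 and −0.36 on nonvascular arrays, with no overlap between groups. Tip exceeded nonvascular retina by 1.02 ± 0.10 (2.03-fold, adjusted p = 4.91e-06), stalk exceeded it by 1.54 ± 0.11 (2.90-fold, adjusted p = 2.82e-07), and tip was below stalk (−0.52 ± 0.09, 1.43-fold, adjusted p = 0.00981). The second Adam15 probe showed none of this, with tip minus nonvascular retina of 0.07 ± 0.08 and tip minus stalk of −0.06 ± 0.07, and the tip to stalk call was lost with median centring (adjusted p = 0.239) and with array brightness in the model (adjusted p = 0.115).

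Adam17 (TACE), which releases TNF and ligands of the EGF receptor, was at −0.29 to 0.24 on tip arrays (median 0.08), at 0.80, 0.17, 0.30 and −0.06 on stalk arrays and at −1.39, −0.99 and −0.83 on nonvascular arrays. Tip was 2.13-fold (1.09 ± 0.18, adjusted p = 0.000434) and stalk 2.59-fold (1.37 ± 0.19, adjusted p = 0.000119) above nonvascular retina, and its second probe was called in the same direction in both (0.82 and 0.96). Tip and stalk arrays overlapped (−0.28 ± 0.16, adjusted p = 0.397). Adam10, the main Notch sheddase, moved little: tip exceeded nonvascular retina by 0.22 ± 0.07 (adjusted p = 0.0212) and the probe was above background on 7 of the 13 arrays. Leaving out nonvascular replicate 2 or 3 ended that call (adjusted p of 0.0701 to 0.100).

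Adam9 and Adam8, sheddases of growth factors and adhesion proteins, were called in tip alone against nonvascular retina, at 0.39 ± 0.10 (adjusted p = 0.00838) and 0.41 ± 0.09 (adjusted p = 0.00354); the difference itself between tip and stalk was not called for either (0.34 ± 0.09, adjusted p = 0.0652, and 0.25 ± 0.08, adjusted p = 0.123). For Adam9 the call ended without nonvascular replicate 2 (adjusted p = 0.0565). Adam19, a sheddase of neuregulin, and Adam33 were not called by their brightest probes. A dimmer Adam19 probe was higher in tip than in stalk by 0.50 ± 0.09 (adjusted p = 0.0163), and another dim one gave 0.29 ± 0.09 (adjusted p = 0.128), against 0.08 ± 0.06 for the brightest. Adam12 could not be tested.

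Adam11, Adam22 and Adam23 are a group of neuronal ADAMs that lack the catalytic motif and bind LGI proteins at synapses, and all 3 were lower in vessels. Adam23 was at 0.85 to 1.59 on tip arrays (median 1.40), at 1.28, 0.90, 0.53 and 1.52 on stalk arrays and at 3.63, 3.78 and 3.22 on nonvascular arrays. It was 4.67-fold lower in tip (−2.22 ± 0.22, adjusted p = 5.81e-06) and 5.60-fold lower in stalk (−2.49 ± 0.24, adjusted p = 4.16e-06), and its second probe gave −1.19 and −1.53, both called. Adam11 differed by −0.73 ± 0.13 in tip (adjusted p = 0.000644) and by −0.79 ± 0.14 in stalk (adjusted p = 0.000565). Adam22 differed less, by −0.26 ± 0.06 in tip (adjusted p = 0.00688) and −0.30 ± 0.07 in stalk (adjusted p = 0.00453). Each call was lost under 3 of the 25 alternatives, both of them with median centring and with the sample channel alone (adjusted p of up to 0.588 in tip and 0.597 in stalk), and over all alternatives the differences ran from −1.47 to −0.10 in tip and from −1.52 to −0.08 in stalk. Most ganglion cell markers, and fewer of the amacrine, bipolar and photoreceptor markers, were lower in the same samples, as given above. The part of these markers here was not tested either.

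Adam32, known chiefly from the testis, was at 0.83 to 1.31 on tip arrays, at 1.09, 0.90, 0.72 and 0.57 on stalk arrays and at 2.62, 1.92 and 1.84 on nonvascular arrays. It was 2.16-fold lower in tip (−1.11 ± 0.18, adjusted p = 0.000312) and 2.47-fold lower in stalk (−1.31 ± 0.19, adjusted p = 0.000147) than in nonvascular retina. Of the 29 ADAM genes, 28 were tested. Against nonvascular retina 5 were called higher and 6 lower in tip, and 2 higher and 6 lower in stalk. That is 17.9% higher and 21.4% lower in tip, and 7.14% and 21.4% in stalk. The shares of all genes were 11.2% and 16.8% in tip, and 11.2% and 18.6% in stalk. Adam7, a lower call singled out after its values were seen, was above background on 3 nonvascular, 2 tip and 0 stalk arrays, so that no fold is given for it. It passed the filter only through the nonvascular arrays, where it is high. It is among the 6 lower calls in tip and the 6 in stalk, and so also in the counts over all members. Most of the rest are genes known from sperm and testis.

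Adamts1, a protease of versican and aggrecan with antiangiogenic activity, and Adamts7, which cuts cartilage oligomeric matrix protein, were higher in vessels. Adamts7 was at 0.78 to 1.5005 on tip arrays (median 1.23), at 1.24, 0.91, 0.93 and 0.61 on stalk arrays and at −0.31, −0.65 and 0.05 on nonvascular arrays. Tip was 2.77-fold (1.47 ± 0.18, adjusted p = 4.59e-05) and stalk 2.33-fold (1.22 ± 0.20, adjusted p = 0.000376) above nonvascular retina, with the vessel arrays all above the nonvascular ones. Adamts1 was at −1.34 to −1.03 on tip arrays, at −1.83, −1.23, −1.11 and −1.75 on stalk arrays and at −2.23, −2.06 and −2.35 on nonvascular arrays. It was 2.02-fold above nonvascular retina in tip (1.02 ± 0.15, adjusted p = 0.000157) and 1.66-fold in stalk (0.73 ± 0.16, adjusted p = 0.00321); its second probe, above background on 11 arrays, gave 0.17 and 0.05, neither called.

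Adamts2 and Adamts8 are named after their values were seen. Adamts2, which removes the amino-terminal propeptide of fibrillar procollagens, was at −3.74 to −2.69 on tip arrays, at −2.37, −3.31, −3.24 and −2.71 on stalk arrays and at −4.16, −4.26 and −4.25 on nonvascular arrays. It was above nonvascular retina by 0.91 ± 0.26 in tip (adjusted p = 0.0168) and by 1.32 ± 0.28 in stalk (adjusted p = 0.00261). The tip call ended without nonvascular replicate 2 or 3 (adjusted p of 0.0508 to 0.0591). A second probe, again dimmer, differed by 0.04 ± 0.05 in tip. Adamts8, known for antiangiogenic activity, was at 0.49 to 1.46 on tip arrays, 0.89, 1.66, 2.13 and 2.11 on stalk arrays and 0.80, 0.57 and 0.49 on nonvascular arrays. Its call was in stalk against nonvascular retina (1.08 ± 0.28, adjusted p = 0.0105), and tip minus stalk, −0.74 ± 0.24, was not called (adjusted p = 0.123). The second Adamts8 probe, dimmer but above background on all 13 arrays, was not called in stalk against nonvascular retina (0.56 ± 0.22, adjusted p = 0.0802). Between tip and stalk that probe gave −0.31 ± 0.19 (adjusted p = 0.439).

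The aggrecanases Adamts4 and Adamts5 differed from each other. Adamts4 was at −0.09 to 0.33 on tip arrays, at −0.25, −0.14, −0.33 and −0.11 on stalk arrays and at −0.32, −0.63 and −0.59 on nonvascular arrays, and was called higher than in nonvascular retina both in tip (0.65 ± 0.10, adjusted p = 0.000178) and in stalk (0.31 ± 0.10, adjusted p = 0.0404). The stalk call was lost under 10 of the 25 alternatives, including the omission of tip replicate 3 or 4, stalk replicate 1, 2 or 4, or nonvascular replicate 2 or 3 (adjusted p of 0.0504 to 0.161). Every tip array lay above every stalk array, and tip minus stalk was 0.35 ± 0.09 (adjusted p = 0.0577). Adamts5 was called nowhere, with tip minus nonvascular retina at −0.29 ± 0.16. For Adamts9 and Adamts10, a versican protease and a protein of fibrillin microfibrils, tip minus stalk was −0.08 ± 0.05 and 0.00 ± 0.07. Adamts9 was called higher in stalk than in nonvascular retina (0.17 ± 0.06, adjusted p = 0.0441), a call lost under 13 of the 25 alternatives; 8 of these left out 1 array (tip replicate 1, 3, 5 or 6, stalk replicate 2 or 4, or nonvascular replicate 1 or 3), with adjusted p of 0.0503 to 0.129.

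The 2 ADAMTS genes called between tip and stalk had small differences. Adamts20, which in the mouse acts on versican in pigment cell migration, was at −0.29 to 0.10 on tip arrays, at −0.61, −0.41, −0.42 and −0.30 on stalk arrays and at −0.21, −0.13 and −0.28 on nonvascular arrays, so tip overlapped nonvascular retina. Tip exceeded stalk by 0.32 ± 0.08 (adjusted p = 0.0457), while a second probe gave −0.06 ± 0.05, the sample channel alone −0.22 (adjusted p = 0.559), and leaving out any of 9 arrays ended the call (adjusted p of 0.0589 to 0.138; tip replicates 1, 3, 4 and 5, stalk replicates 1 to 3 and nonvascular replicates 1 and 2). Adamtsl2, which has no protease domain and belongs to microfibrils, was at −0.10 to 0.20 on tip arrays, at 0.27, 0.50, 0.41 and 0.28 on stalk arrays and at −0.05, −0.21 and −0.18 on nonvascular arrays. Tip was below stalk (−0.34 ± 0.07, adjusted p = 0.0189), a call that ended without stalk replicate 2 or 3 (adjusted p = 0.0531 and 0.0630), and stalk was above nonvascular retina (0.51 ± 0.08, adjusted p = 0.000237). In all, 4 of 18 tested ADAMTS genes were called higher in tip than in nonvascular retina by limma and 0 lower, with 1 lower at an unadjusted p under 0.05. In stalk 7 were called higher and 1 lower. The higher calls are 22.2% in tip and 38.9% in stalk, where 11.2% of all genes were higher in each. Among all genes 16.8% were lower in tip and 18.6% in stalk.

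Ctsw was the member with the largest called difference between tip and stalk. Cathepsin W is known from natural killer and cytotoxic T cells. Its log2 ratio was 0.53 to 0.84 on tip arrays (median 0.75), 2.04, 1.83, 2.08 and 1.73 on stalk arrays and −0.02, −0.04 and 0.08 on nonvascular arrays. The 3 groups formed separate steps with narrow ranges. Tip was 2.27-fold below stalk (−1.18 ± 0.08, adjusted p = 7.63e-06) and 1.66-fold above nonvascular retina (0.73 ± 0.09, adjusted p = 2.64e-05), and stalk was 3.77-fold above nonvascular retina (1.91 ± 0.09, adjusted p = 1.75e-08). Pericyte and smooth muscle markers and endothelial markers were, by their means, ordered in the same way over the groups, and their part was not tested. In the gene table the Ctsw interval (chr19:5465043-5468628) shares its first bases with that of Fibp (chr19:5460598-5465052), whose own probe differed between tip and stalk by 0.08 ± 0.13. Of Fibp and the synapsin genes, all but Syn3 were called lower in tip and in stalk than in nonvascular retina.

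Ctsh, an aminopeptidase among the cysteine cathepsins, followed the same order. It was at 1.58 to 2.24 on tip arrays (median 1.75), at 2.66, 2.55, 2.76 and 2.78 on stalk arrays and at 0.33, 0.83 and 1.30 on nonvascular arrays. Tip was 1.84-fold below stalk (−0.88 ± 0.16, adjusted p = 0.013), tip was 1.98-fold above nonvascular retina (0.99 ± 0.18, adjusted p = 0.00085), and stalk was 3.66-fold above it (1.87 ± 0.19, adjusted p = 7.77e-06). The tip to stalk call was lost with median centring (adjusted p = 0.11) and with array brightness in the model (adjusted p = 0.188). Ctsh and Adamts7 are neighbors within 500 kb on chromosome 9. Both were called higher in tip and in stalk than in nonvascular retina, where 11.2% of all genes were higher in each. Other neighboring members differed. On chromosome 16 Adamts1 was called higher in both and Adamts5 in neither, and in a run on chromosome 8 Adam9 was higher and Adam32 lower in tip.

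Ctso, a little studied cysteine cathepsin, was at −0.22 to 0.48 on tip arrays, at −0.23, 0.62, 0.58 and 0.59 on stalk arrays and at −1.15, −1.20 and −0.59 on nonvascular arrays. It was above nonvascular retina by 1.21 ± 0.21 in tip (adjusted p = 0.000727) and by 1.37 ± 0.23 in stalk (adjusted p = 0.000468). Ctsl, a lysosomal endopeptidase, was at −1.94 to −1.40 on tip arrays, at −2.37, −2.40 and −2.02 on stalk replicates 1, 2 and 4, and at −2.63, −2.09 and −2.63 on nonvascular arrays; the spot of stalk replicate 3 was marked as an outlier and dropped. Tip was above nonvascular retina (0.80 ± 0.16, adjusted p = 0.00209), every tip array lay above every stalk array, and tip minus stalk of 0.61 ± 0.16 was not called (adjusted p = 0.0622). It was called in only 1 of the 25 alternatives, without nonvascular replicate 2 (adjusted p = 0.042).

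Ctss, which processes the invariant chain for antigen presentation in microglia and macrophages, was the most reduced cathepsin. It was at −1.61 to 0.03 on tip arrays (median −0.79), at −1.06, −1.32, −1.44 and −0.36 on stalk arrays and at 0.45, 1.07 and 0.61 on nonvascular arrays. Tip was 2.76-fold (−1.47 ± 0.31, adjusted p = 0.00297) and stalk 3.37-fold (−1.75 ± 0.34, adjusted p = 0.00135) below nonvascular retina, with no overlap. Of 13 tested microglia and macrophage markers, 7 were called lower in tip and 7 lower in stalk than in nonvascular retina. Between tip and stalk limma called 0 of them, and 1 was higher and 1 lower at an unadjusted p under 0.05. Their mean log2 ratio was −0.13 to 0.21 on tip arrays, 0.03 to 0.24 on stalk arrays and 0.46 to 0.86 on nonvascular arrays; their part in the Ctss difference was not tested.

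**Figure D4:**
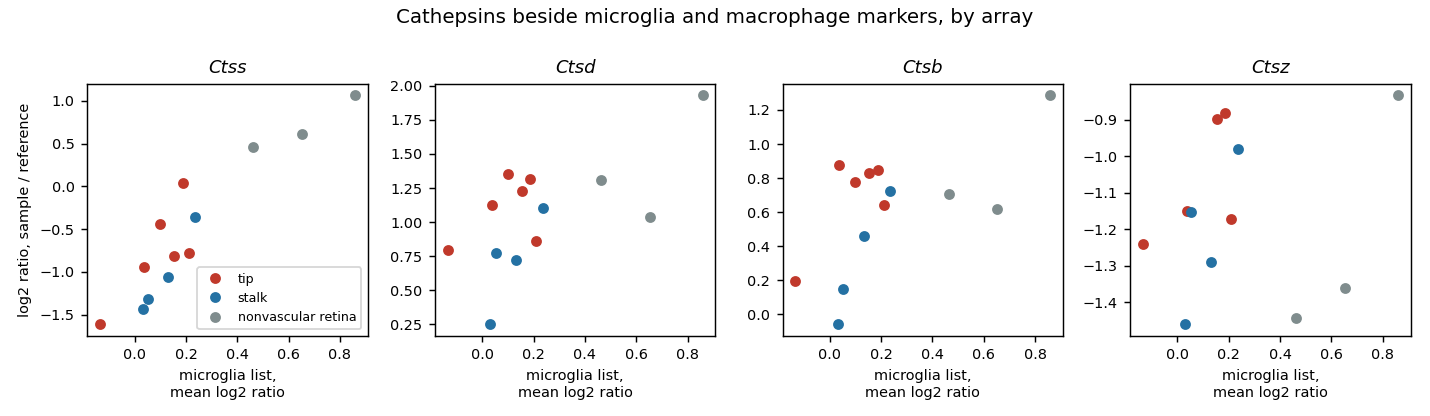
Log2 ratio of Ctss, Ctsd, Ctsb and Ctsz (vertical axes) against the mean log2 ratio of 13 microglia and macrophage markers (horizontal axes), 1 point per array, colored by group. The nonvascular arrays lie to the right, at 0.46 to 0.86 on the marker axis; for Ctss they also lie above all vessel arrays, while for Ctsb and Ctsz they overlap them.

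The other lysosomal cathepsins changed less. Ctsd, the main aspartic protease of lysosomes, was at 0.80 to 1.35 on tip arrays, at 0.72, 0.77, 0.25 and 1.103 on stalk arrays and at 1.31, 1.93 and 1.04 on nonvascular arrays. Stalk was lower than nonvascular retina (−0.71 ± 0.23, adjusted p = 0.0299), tip minus nonvascular retina was −0.31 ± 0.21 (adjusted p = 0.324), and a dimmer second probe was called lower in both (−1.03 and −1.41). The stalk call of the brightest probe was lost when stalk replicate 1 or 3 or nonvascular replicate 1 or 2 was left out (adjusted p of 0.0548 to 0.159). Ctsf, a cysteine cathepsin, was lower in tip (−0.80 ± 0.09, adjusted p = 2.62e-05) and in stalk (−0.95 ± 0.10, adjusted p = 1.14e-05) than in nonvascular retina, at 0.74 to 1.16 on tip arrays, 0.65 to 0.86 on stalk arrays and 1.66 to 1.76 on nonvascular arrays.

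Ctsa, Ctsb, Ctsc, Ctsk and Ctsz were called in no comparison by their brightest probes. Tip minus nonvascular retina was −0.18 ± 0.20 for Ctsb, a carboxypeptidase and endopeptidase, and −0.39 ± 0.22 for Ctsc, which activates serine proteases of immune cells. For Ctsz, a carboxypeptidase whose spot on tip replicate 1 was dropped as an outlier, it was 0.14 ± 0.15, while a second probe was lower in stalk than in nonvascular retina (−0.55 ± 0.17, adjusted p = 0.0281). A run of 4 cathepsin genes on chromosome 13 (Ctsj, Ctsq, Ctsr and Ctsm), known in rodents from the placenta, had 0 calls by limma and 0 at an unadjusted p under 0.05 among the 3 that were tested, with no difference beyond 0.19. Of the 17 tested cathepsins, 4 were called higher and 3 lower in tip than in nonvascular retina, and 3 higher and 3 lower in stalk. That is 23.5% higher and 17.6% lower in tip, and 17.6% each in stalk. The shares of all genes were 11.2% and 16.8% in tip, and 11.2% and 18.6% in stalk.

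**Figure D5:**
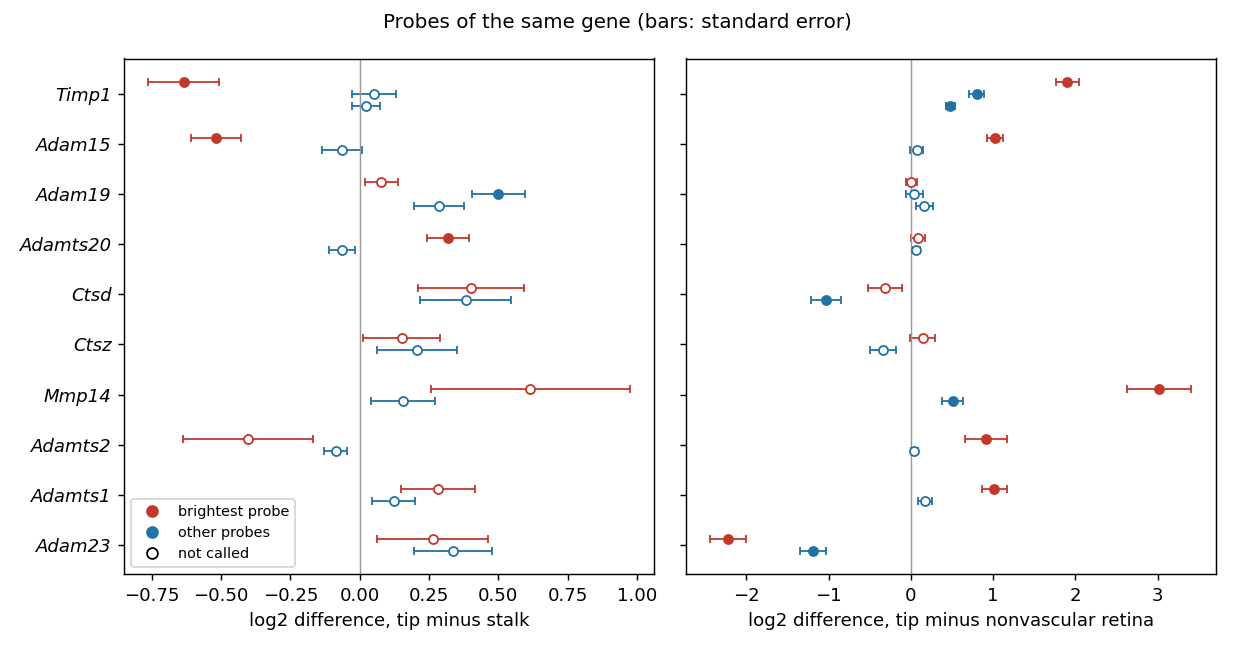
Log2 difference with its standard error for each tested probe of 10 members that have several probes, tip minus stalk on the left and tip minus nonvascular retina on the right. Red points are the brightest probe, which stands for the gene, blue points the others, and open points were not called; for Timp1, Adam15, Adamts1, Adamts2 and Mmp14 the brightest probe shows a larger difference from nonvascular retina than the others, and for Ctsd the dimmer probe does.

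The plot of probes shows how far a gene's values rest on the probe. Of the 90 members, 28 have several probes. Adam23, Timp1 and Mmp14 were called in the same direction in tip against nonvascular retina by each of their probes, with different sizes. So were Adam17 and Mmp17, which are not in the plot. Adam15, Adamts1 and Adamts2 were called there by the brighter of their 2 probes, and Ctsd by the dimmer of its 2. The files give no probe sequences, so the transcript stretch each probe reads was not compared.

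Of 36 other genes of these pathways (activators, inhibitors, adaptors and cofactors), 33 were on the arrays and all 33 were tested. Between tip and stalk 1.48% of all genes were called higher and 1.32% lower. Of the 33, 3 were called higher and 0 lower in tip, with 5 higher and 3 lower at an unadjusted p under 0.05. The 3 are the urokinase receptor Plaur, urokinase itself (Plau) and the membrane-anchored MMP inhibitor Reck. Plaur was at 0.26 to 0.80 on tip arrays, −0.16, −0.09, 0.11 and −0.17 on stalk arrays and −0.77, −1.12 and −1.27 on nonvascular arrays, without overlap. Tip exceeded stalk by 0.62 ± 0.12 for Plaur (adjusted p = 0.0200), by 0.46 ± 0.11 for Plau (adjusted p = 0.0467) and by 0.37 ± 0.07 for Reck (adjusted p = 0.0210). The call of Plaur ended without stalk replicate 1 (adjusted p = 0.0662), that of Reck without stalk replicate 2 or 3 (0.0599 and 0.0667 as adjusted p), and that of Plau on leaving out any of 11 arrays, all but tip replicate 6 and nonvascular replicate 3 (adjusted p of 0.0564 to 0.128). With array brightness in the model none of the 3 was called (adjusted p of 0.153 to 0.454).

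Against nonvascular retina, 11.2% of all genes were called higher and 16.8% lower in tip, and 11.2% and 18.6% in stalk. Of the 33 pathway genes, 10 were called higher and 9 lower in tip, and 8 higher and 8 lower in stalk. The higher ones include the procollagen C-proteinase Bmp1 (1.55 ± 0.11 in tip and 1.56 ± 0.12 in stalk) with its enhancer Pcolce (1.21 ± 0.15 and 1.60 ± 0.16), and Furin, which activates Mmp14, Mmp11 and ADAM proproteins (0.97 ± 0.14 and 1.30 ± 0.15). Rhbdf2, the partner that brings Adam17 to the cell surface, was also called higher in both (1.08 ± 0.13 in tip and 0.93 ± 0.14 in stalk). The lower ones include Spock3, a proteoglycan of brain matrix (−2.16 ± 0.18 in tip and −2.24 ± 0.19 in stalk), Tspan17, a tetraspanin partner of Adam10 (−1.46 ± 0.12 and −1.52 ± 0.13), the cathepsin inhibitor Cst6 (−0.92 ± 0.16 and −0.91 ± 0.17) and the lysosomal protease Lgmn (−0.84 ± 0.17 and −1.10 ± 0.18).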

How the data were processed

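Tip (n = 6), stalk (n = 4) and nonvascular retina (n = 3) samples were each hybridised in Cy5 against a common reference in Cy3, with no dye swap. The submitters' processing notes name Agilent Feature Extraction, version 8.5.1.1, for image analysis. Per the file headers, the spots hold mean intensity and local background intensity in each channel, not normalized, and a log10 ratio of processed signals. The deposited matrix gives the Cy5 to Cy3 ratio on a linear scale: per array, 99.94% or more of its probes matched 10 raised to that log10 ratio within a log10 tolerance of 0.001, with 631 to 1555 probes missing. Its centring beyond that of the log10 ratio is not stated.

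Intensities were background corrected with normexp (offset 50) and normalized by loess within each array using R 4.3.3, limma 3.58.1 and the package data.table (version 1.17.8). Controls were given weight 0 and outlier spots were dropped. Repeated spots were averaged, the brightest probe stood for its gene, and genes well above background in Cy5 on at least 3 arrays were kept (31956, of which 17350 have a symbol). Spots well above background made up 85.0% to 95.4% of each array. Probes were named through the RefSeq gene table (GRCm38.p6): 118 of the 122 member probes by their own accession and 4 by the symbol in their description. The files name no genome build, so their coordinates were not used. One model with a mean per group took in the 13 arrays, with moderated tests and Benjamini-Hochberg adjustment over all genes. The steps were tested on simulated data.

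The members follow from gene symbols, but the symbol rule and the marker and pathway lists were set with earlier results of these data known. Named with values are the members called between tip and stalk, the 8 largest called differences in each direction against nonvascular retina, and a list chosen by role; other names are marked, and the synapsin genes and Fibp are given for their position. Same-numbered replicates of different groups had deviations that correlated at −0.144 to 0.0824, so the numbers were not treated as pairs. Each slide holds 1 array. Stalk arrays were scanned first, tip arrays next and nonvascular arrays last, so the order of scanning cannot be told apart from the groups, and tip replicate 5 was scanned apart from the rest. The number of arrays limits the precision.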

Additional observations from a re-analysis of the deposited data

Results flagged for a closer look

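In 89 groups of named members with 4 to 6 arrays, 5 held an array far from the rest of its group by Dixon's criterion, and chance flags about 1 group in 20. On tip replicate 4, Ctsb was at 0.195, against 0.641 to 0.879 on the other tip arrays, and Ctsc was at −0.426, against −0.146 to −0.0419. Ctsh was at 2.24 on tip replicate 1, against 1.58 to 1.77 on the other tip arrays, and even this array lay below every stalk array. On stalk replicate 1, Ctso was at −0.228, against 0.578 to 0.619 on the other stalk arrays, and Timp2 was at −0.253, against 0.00155 to 0.0523.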

How the results depend on the processing

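Between tip and stalk, where 1 member was called higher and 7 lower, median centring gave 0 higher and 4 lower, array brightness in the model 0 and 2, and the fit with a replicate block 0 and 2. Leaving out 1 array at a time gave 0 to 3 higher and 4 to 7 lower, the 4 without stalk replicate 2. With the sample channel alone the difference of Adamts20 turned to −0.22. The causes were not tested. Same-numbered samples do not deviate together (1 of 11 correlates best with its own number), so the block was not used; with it, limma called 380 genes higher and 293 lower between tip and stalk. Of the 44 named members tested, 2 of 8 calls between tip and stalk, 18 of 26 between tip and nonvascular retina and 19 of 24 between stalk and nonvascular retina held under all 25 alternatives. Among the calls lost against nonvascular retina, Adam22 was lost in tip and stalk with median centring and with the sample channel alone, Ctss in tip with the replicate block (adjusted p = 0.0637), Timp2 in tip with the sample channel alone (adjusted p = 0.143) and Adamts1 in stalk with median centring (adjusted p = 0.0691). Slide and scan date were not run as a block, because each slide holds 1 array and the date apart from the rest holds only tip replicate 5, whose omission is among the alternatives. Dim members limit the results further: 7 of the 87 tested were not above background on every array.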
